A study of Mus musculus with 4 samples.

Results

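Arterial-like endothelial cells are described here among cells of the Tbx1 lineage of the mouse embryo at embryonic day 9.5. A cell was taken as a member when its barcode held at least 3000 genes and at most 10% mitochondrial UMIs (unique molecular identifiers, 1 per captured transcript), when at least 4 of the 7 endothelial genes Pecam1, Cdh5, Tek, Emcn, Cldn5, Esam and Kdr were detected, when Epcam and Etv2 had no UMI, and when at least 3 of the 6 arterial genes Gja4, Gja5, Hey1, Dll4, Sox17 and Unc5b were detected. This gave 352 cells of 35228 that passed the limits on genes and mitochondrial UMIs. The 1116 endothelial cells with 0 to 2 of the 6 genes are called the remaining endothelial cells. Since measured values of these 15 genes chose the members, their levels are a description and carry no test, and neither does any comparison of levels between members and remaining cells. Tests are given for the genotypes, within either cell group or as the difference of the genotype effect between them.

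The study asked how loss of Kmt2d, a histone H3 lysine 4 methyltransferase, alters the Tbx1 lineage. Embryos were Tbx1Cre/+; Kmt2d F/F; GFP F/+ (cKO) or Tbx1Cre/+; Kmt2d F/+; GFP F/+ (cHet, the control) on a background labelled outbred Swiss Webster (mixed with C57BL/6 in the study's methods). Cre is inserted in Tbx1, so both genotypes carry 1 working Tbx1 allele, cHet cells carry 1 floxed Kmt2d allele, and there is no group with full dosage of either gene. The pharyngeal region and heart were dissected, GFP-positive cells were sorted, and the embryos of a genotype were pooled into 1 library, 4 embryos in replicate 1 (Next GEM kit) and 3 in replicate 2 (GEM-X kit). The replicate number therefore also marks the kit, and only 2 libraries of each genotype exist.

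Arterial endothelium is specified early, when VEGF signalling through Kdr and Nrp1 switches on the Notch ligand Dll4. Notch activity then maintains the transcription factors Hey1 and Hey2 and the ligand Efnb2, together with SoxF factors such as Sox17, while the orphan receptor Nr2f2 holds venous cells in their state. Gja4 and Gja5 encode connexins of the arterial wall, and Unc5b is a guidance receptor of arteries and sprouting tips. At this stage the pharyngeal arch arteries form, and the endocardium of the outflow tract lies next to them.

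Replicate 1 gave 47 members in cHet and 17 in cKO, and replicate 2 gave 124 in cHet and 164 in cKO. Their median depth was 17919, 20779, 19143 and 15597.5 UMIs per cell in that order, against 20445, 27290, 21061 and 16637 in the remaining endothelial cells. Summed over cells, the members held 969574, 489516, 2564450 and 2708287 UMIs, so cKO Rep1 is the least precise library. No barcode was shared between the members of any pair of libraries. By Scrublet score, 4, 2, 14 and 14 members fell among the doublets expected for the kit, and these cells were kept. Levels are given as CPM, the UMIs of a gene in the summed cells scaled to the same total in each library. Where 4 values stand in a row, they belong to the libraries in the order replicate 1 cHet, replicate 1 cKO, replicate 2 cHet, replicate 2 cKO, called library order.

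The members carried the general endothelial genes that chose them, with few UMIs of epithelial, macrophage and neural markers and more of mesenchyme and smooth muscle markers. Cdh5, the endothelial cadherin, lay at 364, 357, 654 and 659 CPM in library order, and was detected in every member but 1 of the 164 in cKO Rep2. Pecam1, Cdh5 and Esam had higher CPM in the members than in the remaining cells in every library. Cldn5 and Tek had lower CPM in every library, and Emcn and Kdr varied in direction. In cHet Rep2 and cKO Rep2, Cldn5 was detected in 68.5% and 64.0% of members against 95.2% and 91.7% of the remaining cells. Summed over 8 epithelial markers, of which Epcam is set to 0 by the rule, the members held 5.54 to 8.17 CPM, and over 6 macrophage markers 2.06 to 10.2 CPM. The 8 neural crest and neuronal markers summed to 0 to 4.09 CPM, with all 8 at 0 in cHet Rep1. Blood markers, 10 in number, summed to 81.5 CPM in cHet Rep1 and to 12.3 to 28.8 CPM in the other libraries. The 10 cardiac muscle markers summed to 78.4, 26.6 and 38.6 CPM in cHet Rep1, cKO Rep1 and cHet Rep2 but to 684 CPM in cKO Rep2, most of it from the cell described with the genotype comparison. The 12 mesenchyme and smooth muscle markers summed to 174 and 204 CPM in replicate 1 and to 478 and 583 CPM in replicate 2. The remaining endothelial cells held 227 and 146 CPM in replicate 1 and 181 and 187 CPM in replicate 2, and cells with none of the 7 endothelial genes 1411 to 1956 CPM. Of these markers Acta2, Col3a1 and Lum were called between genotypes, and the part of such cells in the results was not tested.

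Endothelial cells were spread over every number of the 6 genes, from 0 to 6, in each library. Exactly 2 of the 6 genes were detected in 44, 29, 64 and 84 endothelial cells in library order, just outside the threshold, and exactly 3 in 21, 9, 46 and 50, just inside it. All 6 genes were seen together in 1, 1, 24 and 35 cells. The bar chart of genes detected per cell shows 1 gene as the most frequent number in every library and a longer tail in both libraries of replicate 2. In cHet Rep2 the tail was uneven, with 24 cells at 4 genes and 30 at 5.

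**Figure D1:**
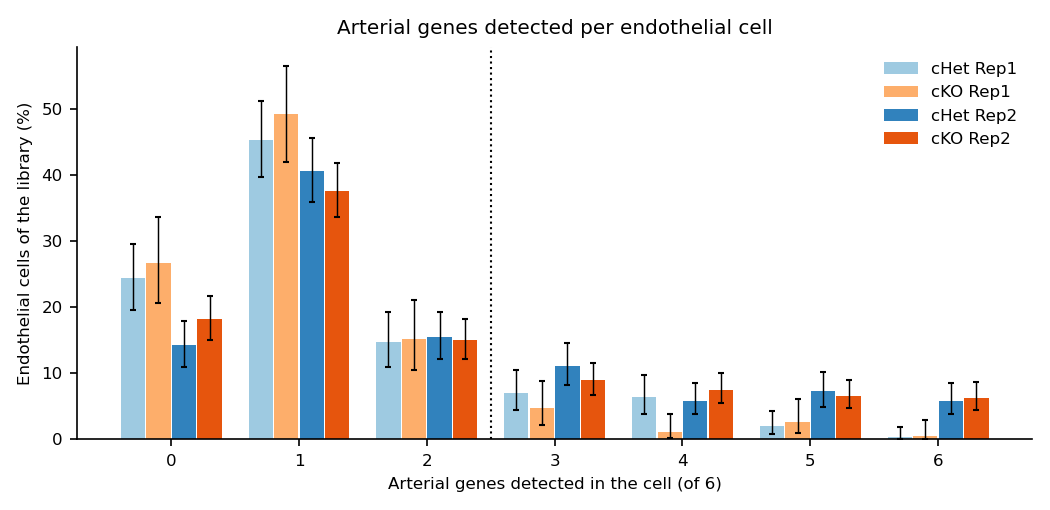
Share of endothelial cells (%) by the number of the 6 arterial genes detected, for 4 libraries, with exact 95% binomial intervals as error bars. Cells to the right of the dotted line are the members; 1 gene is the most frequent number in each library, and 24 and 35 cells of cHet Rep2 and cKO Rep2 hold all 6.

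The 6 genes contributed unequally. Hey1, a transcriptional repressor downstream of Notch, was at 87.7, 75.6, 203 and 221 CPM in the members in library order. Gja4 (connexin 37) lay at 77.4, 53.1, 208 and 213 CPM and Dll4 at 40.2, 42.9, 85.4 and 105 CPM. Both replicate 2 libraries were above both replicate 1 libraries for each of these genes. Sox17 was the least selective: it was detected in 60.9% to 71.2% of the remaining endothelial cells and in 87.2% to 94.1% of the members. Gja5 (connexin 40) was the rarest, seen in 17.6% to 37.9% of the members. In cells with none of the 7 endothelial genes, which should lack Gja4, a UMI of it was found in 0.334% to 0.495% of cells at median depths of 17370 to 22987 UMIs, while 47.1% to 62.9% of the members held one. Hey1 and Unc5b were not confined to endothelium: 17.6% to 30.1% and 9.28% to 13.9% of those non-endothelial cells held them. Gja5, Dll4 and Sox17 were detected in at most 2.95% of them. Of all members, 191 held both Gja4 and Hey1, and 99 both Gja4 and Gja5.

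Genes that played no role in the choice followed the same axis. Of 8321 genes outside the rule with at least 50 UMIs over both cell groups in each library, 25 (0.3%) were over 2-fold higher in the members in all 4 libraries and 7 (0.084%) over 2-fold lower, on the log2(CPM + 5) scale. Since the same cells were chosen by expression, these are descriptions of how the members differ. Nedd9, an adhesion scaffold protein, lay furthest above the remaining cells in the library where the gap was smallest: it stood at 113, 79.7, 249 and 253 CPM in the members in library order, against 14.9, 11.9, 30.0 and 32.9 CPM. Every summed level of the members was above every summed level of the remaining cells.

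The vascular growth factor Vegfc was at 123, 159, 239 and 334 CPM in the members, against at most 40.1 CPM in the remaining cells. Mecom, a zinc finger transcription factor of arterial and hematopoietic cells, was at 446, 372, 692 and 803 CPM against 89.6, 90.2, 120 and 147 CPM. Efnb2, the ephrin ligand that defines arteries, was at 207, 194, 314 and 372 CPM against 65.4, 52.4, 98.7 and 93.9 CPM. For these genes too every summed level of the members was above every summed level of the remaining cells. Single cells were not compared. Neither Vegfc nor Efnb2 is confined to endothelium: in cells with none of the 7 endothelial genes they stood at 94.7 to 145 and 56.2 to 108 CPM. Efnb2 was detected in 43 of 47, 16 of 17, 122 of 124 and 161 of 164 members. The rest of the 15 highest were Npr3 (a natriuretic peptide receptor), Sat1 (polyamine catabolism), Igfbp3 (an insulin-like growth factor binding protein), the long noncoding RNA Morrbid, Depp1, Plcl1, Cdkn1c (a cell cycle inhibitor), Ldlrad4, Efna1 (an ephrin), Zfp69 and Smad7 (an inhibitor of TGF-beta signalling). Among these, Sat1 had log2 ratios of 1.94 to 3.03 and Zfp69 of 1.25 to 1.67.

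Among the 15 genes furthest below the remaining cells, Nr2f2, the venous regulator, stood at 66.0, 137, 112 and 114 CPM in the members in library order, against 230 to 349 CPM in the remaining cells. Tll1, an astacin metalloprotease, was at 29.9, 6.13, 39.8 and 42.8 CPM against 105 to 207 CPM. Flrt2, a guidance and adhesion protein, was at 76.3, 63.3, 144 and 118 CPM against 272 to 426 CPM. Brinp1, Lhx6 and Nexmif were low in the members as well, at 2.04 to 15.9 CPM. The dot plot of these genes shows the 4 libraries on the same side of 0 for each gene, as the choice of genes required.

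**Figure D2:**
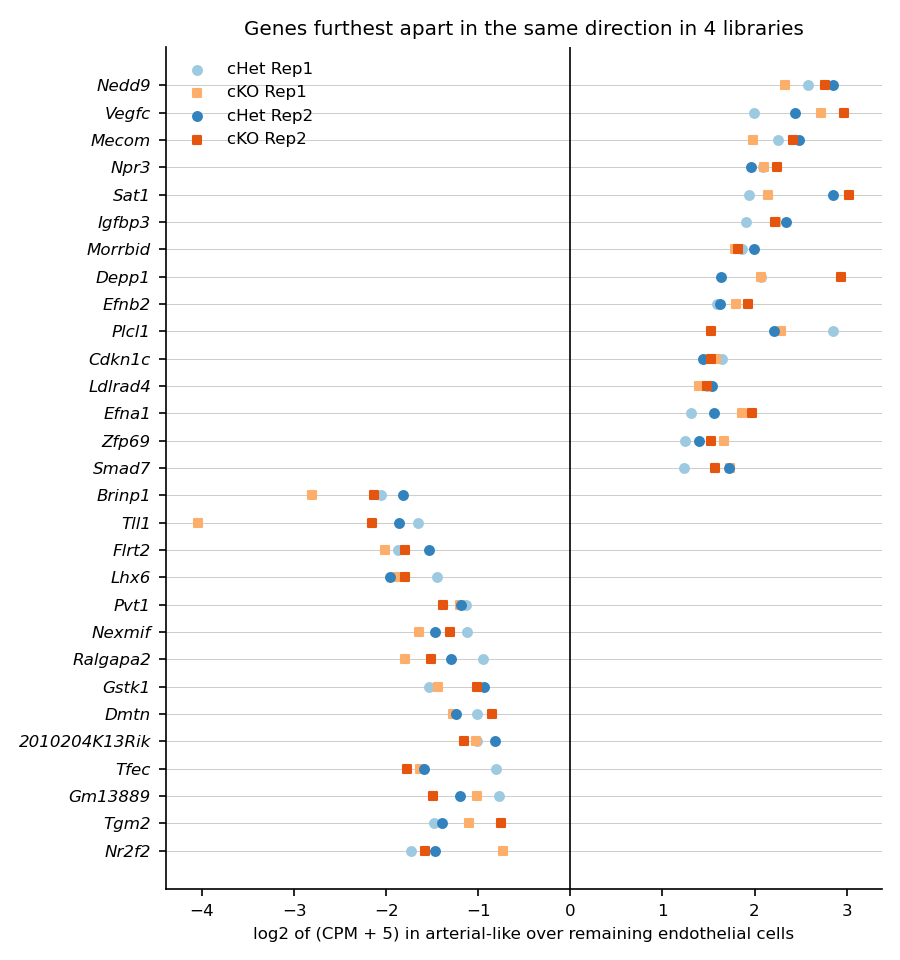
log2 ratio of CPM + 5 in arterial-like over remaining endothelial cells for the genes furthest above and furthest below, 1 point per library. Nedd9 heads the genes above, at 2.33 to 2.86, and Brinp1 the genes below, at -2.80 to -1.82.

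By gene list, the levels of arterial genes outside the rule were higher in the members and those of venous genes lower. The lists were chosen by hand with earlier results of these data known. Their counts beside those of all genes are therefore descriptions and not independent support. Of 16 arterial identity genes measured, 15 were higher in the members in all 4 libraries, where 18.4% of all genes were, and 6 were over 2-fold higher. The median log2 ratio of the list was 1.18, against 0.01 for all genes outside the rule. None of 9 venous and lymphatic genes was higher in all 4 libraries and 6 were lower, where 15.8% of all genes were, and the list's median was -0.53. Of 19 Notch pathway genes, 6 were higher and 1 lower in all 4 libraries, with a median of 0.10. Among Notch receptors, Notch1 had log2 ratios of 0.65 to 0.88 and Notch4 of 0.65 to 1.53. Nrarp, a feedback inhibitor and target of Notch, had ratios of 0.69 to 1.65, whereas Rbpj, the DNA-binding partner of the pathway, had ratios of -0.17 to 0.13.

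Of 33 endothelial matrix and adhesion genes, 26 were higher in all 4 libraries, with a median log2 ratio of 0.50. The BMP target Id1 had ratios of 0.62 to 1.13. None of 42 DNA replication genes was higher and 13 were lower, with a list median of -0.14, and the 52 mitotic genes had a median of 0.09. Of 80 cytosolic ribosomal protein genes, 77 were lower in all 4 libraries, with a median of -0.19. Of 10 endocardial genes measured, 5 were higher in all 4, with a median of 0.56, led by Npr3 and by Isl1, a transcription factor of outflow progenitors, with ratios of 0.96 to 1.98. The 6 measured markers of mesenchyme and smooth muscle had a median of 0.66, with 1 higher in all 4 libraries.

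The gradient continued inside the member group. In cHet Rep2, Mecom stood at 287 CPM in cells with 3 arterial genes, 769 CPM with 4 and 1068 CPM with 5 or 6, and in cKO Rep2 at 309, 705 and 1276 CPM. Vegfc went in the same order from 130 to 171 and 382 CPM in cHet Rep2, and from 112 to 210 and 594 CPM in cKO Rep2. Aplnr, the apelin receptor of veins, went the other way, from 155 to 123 and 38.7 CPM in cHet Rep2 and from 188 to 75.5 and 21.6 CPM in cKO Rep2. In the remaining cells of those libraries with none of the 6 genes, Aplnr stood at 256 and 312 CPM. In replicate 2, cells with 4 or more of the genes were not deeper than cells with 3. For 3, 4 and 5 to 6 genes the median was 21108.5, 19073.5 and 17879.5 UMIs per cell in cHet Rep2 and 17213.5, 14734 and 14769.5 in cKO Rep2. In replicate 1 the same steps rest on 21, 19 and 7 cells of cHet and 9, 2 and 6 cells of cKO, and were not even. In cKO Rep1 the cells with 4 and 5 genes were deeper, at medians of 46975.5 and 42147 UMIs against 20779 with 3. The 1 cell with 6 genes there had 19772.

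**Figure D3:**
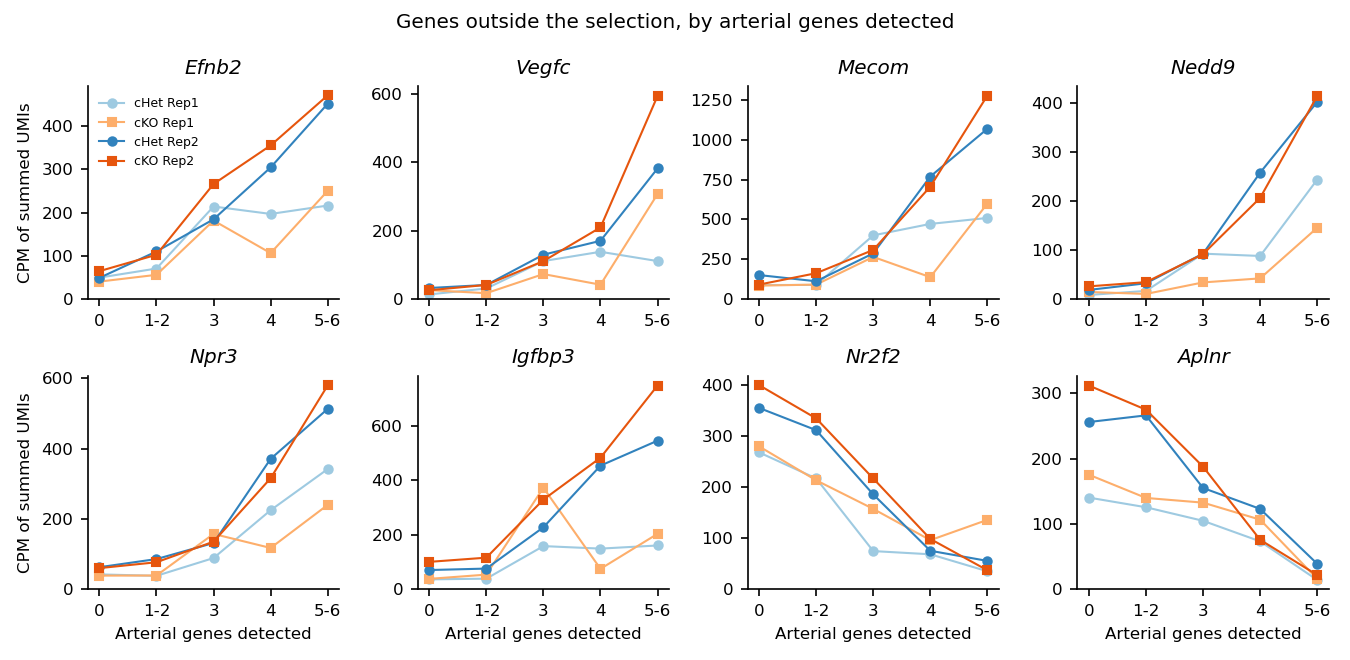
CPM of 8 genes outside the rule, in endothelial cells grouped by how many of the 6 arterial genes were detected (0, 1 to 2, 3, 4, 5 to 6), 1 line per library. Mecom reaches 1068 and 1276 CPM in cHet Rep2 and cKO Rep2 at 5 to 6 genes, while Aplnr lies at 38.7 and 21.6 CPM there; the cKO Rep1 point at 4 genes is 2 cells.

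Promoter sequences of these genes were searched for the core letters bound by RBPJ, the DNA-binding factor of Notch. The motif TGGGAA, or TTCCCA on the other strand, was looked for in the 250 bases before the transcript start that RefSeq gives (GRCm38.p6), where 6510 of 27025 genes (24.1%) held it. It was found for 2 of the 12 genes with a promoter entry among the 15 highest in the members, for none of the 10 among the 15 lowest, and for none of the 4 with an entry among the 6 arterial genes of the rule. The SOX letters ACAAT, or on the other strand ATTGT, were present for 30.9% of all genes, for 1 of the same 12, for 5 of the same 10 and for Gja4 of the 4. With sets this small, nothing is read from these counts against the shares of all genes. The 2 with a match are shown with the motif in capitals, as both were over 2-fold higher in the members in every library. GENCODE M21 places the starts elsewhere: the Depp1 window runs past its gene start there (chr6:116650609-116652794) and the Morrbid window lies inside its gene (chr2:128178319-128502765).
Depp1 (chr6:116650434-116650683, plus strand): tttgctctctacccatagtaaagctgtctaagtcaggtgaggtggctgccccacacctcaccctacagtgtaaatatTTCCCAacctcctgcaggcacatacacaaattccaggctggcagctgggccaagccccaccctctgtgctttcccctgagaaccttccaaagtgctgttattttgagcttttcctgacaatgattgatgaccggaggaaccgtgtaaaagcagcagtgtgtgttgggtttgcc
Morrbid (chr2:128429352-128429601, minus strand): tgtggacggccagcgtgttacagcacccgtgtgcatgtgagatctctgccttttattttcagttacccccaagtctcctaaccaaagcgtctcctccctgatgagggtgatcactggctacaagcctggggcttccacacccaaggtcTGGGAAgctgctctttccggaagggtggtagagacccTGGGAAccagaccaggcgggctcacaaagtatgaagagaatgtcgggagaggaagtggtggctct
A match of these letters is a description and not a binding site, and its absence from this window says nothing of more distant enhancers.

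The share of endothelial cells that were arterial-like differed more between replicates than between genotypes. It was 15.7% (47 of 300 cells, exact 95% interval 11.7% to 20.3%) in cHet Rep1 and 8.90% (17 of 191, 5.27% to 13.9%) in cKO Rep1. In replicate 2 it was 29.8% (124 of 416, 25.4% to 34.5%) in cHet and 29.2% (164 of 561, 25.5% to 33.2%) in cKO. The difference, cKO minus cHet, was -6.77 percentage points (95% interval -12.4 to -0.65) in replicate 1 and -0.57 points (-6.39 to 5.15) in replicate 2, where the intervals cover counting error only. Over libraries the mean difference of -3.67 points had p = 0.667 by a two-sided exact permutation test. With 2 libraries against 2 its p cannot go below 0.333. This test did not keep libraries paired by replicate, so the gap between replicates enters its p. When every cell was thinned to 5000 UMIs before detection, the shares were 3.73% and 2.23% in cHet and cKO of replicate 1 and 14.6% and 15.9% in replicate 2. The interval of the replicate 1 difference covered 0 with thinning (-4.46 to 1.80 points), with at least 4 arterial genes (-8.73 to 0.22) and with at least 2 (-14.0 to 1.94). It did not cover 0 without doublet-scored barcodes (-14.0 to -1.48) or with at least 5 of 7 endothelial genes (-12.7 to -0.57). Both readings put replicate 2 above replicate 1, and kit and embryo pool cannot be told apart there.

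Kmt2d itself was read at 17.5, 20.4, 22.6 and 24.0 CPM in the members in library order, a log2 difference of 0.13 ± 0.30 (SE). UMIs are counted near the 3' end of transcripts, and the position of the floxed part is not given in the sources used here, so that this level was not taken as a check of genotype. Tbx1 lay at 29.9, 53.1, 27.7 and 28.4 CPM. Neither gene passed the test, with a Benjamini-Hochberg adjusted p of 1.00 in edgeR for both.

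Between genotypes, the genes called lower in cKO members included Tbx20, Gata4, Has2 and Adgrg6, and those called higher included Igfbp3, Depp1, Timp3 and Cav1. Counts were summed per library and tested with edgeR's quasi-likelihood fit with replicate as a block, which leaves 1 residual degree of freedom. Of 10210 genes tested, 33 passed an adjusted p of 0.05 (0.323%), 15 higher (0.147%) and 18 lower (0.176%) in cKO, and 431 had an unadjusted p under 0.05 (4.22%). Of the 33, Gja5 is a gene of the rule and is not counted as a finding. These calls depend on the fit: without the replicate block none passed, and DESeq2 with the block called none, with 53 and 30 genes at an unadjusted p under 0.05. Leaving out 1 library, which also removes the block, left 9 calls without cHet Rep1 and none without cKO Rep1, cHet Rep2 or cKO Rep2.

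Tbx20 (chr9:24718138-24774303, minus strand, GRCm38 and GENCODE M21 as for all gene positions here), a T-box factor of endocardium and myocardium, had 40, 0, 150 and 42 UMIs in the members in library order. This corresponds to 41.3, 0, 58.5 and 15.5 CPM, so that both cKO libraries lay below both cHet libraries. Its log2 difference was -2.19 ± 0.33 (SE, edgeR adjusted p = 0.000106). Gata4 (chr14:63198922-63271692, minus strand), a cardiac GATA factor, stood at 42.3, 0, 50.3 and 21.8 CPM and fell by 1.57 on the log2 scale (edgeR adjusted p = 0.0125). Has2 (chr15:56665627-56694539, minus strand), the hyaluronan synthase of cardiac cushions, stood at 25.8, 0, 42.1 and 10.7 CPM and fell by 2.20 (edgeR adjusted p = 0.000551). Adgrg6, an adhesion receptor, stood at 24.8, 2.04, 62.4 and 17.7 CPM and fell by 1.93 (edgeR adjusted p = 0.000200). In the remaining endothelial cells of replicate 2, Tbx20, Gata4, Has2 and Adgrg6 were instead higher in cKO than in cHet. In those of replicate 1, Tbx20, Gata4 and Has2 were lower in cKO and Adgrg6 was higher. Levels over members and remaining cells together were not tested. The calls in the members moved with the choice of members. With at least 2 of the 6 arterial genes the log2 differences were -0.57 for Tbx20, -0.75 for Gata4 and -1.01 for Adgrg6, and none of these passed (edgeR adjusted p = 0.999, 0.999 and 0.0872), while Has2 did, at -1.24. With at least 4, Tbx20, Has2 and Adgrg6 passed and Gata4 did not, at -1.03. Without doublet-scored barcodes Tbx20 and Adgrg6 passed, and Gata4 and Has2 did not. Leaving out 1 library other than cKO Rep2 gave -2.34 to -1.82 for Tbx20, -1.74 to -1.22 for Gata4 and -2.36 to -1.80 for Has2, none passing, and without cKO Rep2 no fold is given, since cKO then has 0 UMIs of each. The zero counts of cKO Rep1 come from 17 cells, where 3 UMIs would be 6.13 CPM.

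The UMIs of Tbx20 and Gata4 came from few cells. Tbx20 was detected in 6 of 47, 0 of 17, 13 of 124 and 6 of 164 members, and Gata4 in 4, 0, 16 and 5. Cells holding both genes numbered 3, 0, 12 and 3, which is 6.38% (exact 95% interval 1.34% to 17.5%), 0% (0 of 17 cells, up to 19.5%), 9.68% (5.10% to 16.3%) and 1.83% (0.379% to 5.25%) of members. In cHet Rep2 those 12 cells held 149 of 150 Tbx20 UMIs, 122 of 129 Gata4 UMIs, 135 of 160 Adgrg6 UMIs and 71 of 108 Has2 UMIs. The double-positive cells were chosen after the values were seen, and in cHet Rep2 they carried a median of 4 of the 6 arterial genes, as the other members did. In cKO Rep2 the 3 such cells held 37 of 42 Tbx20 UMIs and 46 of 59 Gata4 UMIs, but 3 of 48 Adgrg6 UMIs and 8 of 29 Has2 UMIs. There Adgrg6 and Has2 were spread over 18 and 17 members. When the cell with most UMIs of each gene was left out of each library, an alternative added after seeing the data, 29 genes were called, 20 of them among the 33.

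Further genes were lower in cKO. Col3a1, a fibrillar collagen, stood at 16.5, 12.3, 89.7 and 24.7 CPM in library order and fell by 1.67 on the log2 scale (edgeR adjusted p = 0.000393). Slc1a3, a glutamate transporter, stood at 16.5, 2.04, 44.5 and 4.43 CPM, Nts (neurotensin) at 9.28, 2.04, 55.8 and 16.3 CPM, and Pdgfrl at 105, 28.6, 15.6 and 5.91 CPM. In each of these the cKO library was below the cHet library of its replicate. Within replicates 1 and 2 the log2 differences were -0.40 and -1.79 for Col3a1, -1.76 and -1.69 for Nts and -1.84 and -1.22 for Pdgfrl. Leaving out 1 library sets libraries of different replicates against each other without the block, and there Col3a1 turned to 0.091 and Nts to 0.074 without cHet Rep2, and Pdgfrl was -0.046 without cHet Rep1. Col3a1 and Pdgfrl did not pass with at least 2 arterial genes, and Nts and Pdgfrl not with at least 4, while Slc1a3 passed with both. In cHet Rep2 the 12 cells with Tbx20 and Gata4 held 72 of 114 Slc1a3 UMIs and 89 of 143 Nts UMIs, and 1 cell held 44 of the Slc1a3 UMIs. Spon1, Lum, Ctnna2 and Dach2 fell as well, by 2.38, 2.47, 1.40 and 1.35. None of them was called with at least 4 arterial genes, and only Spon1 with at least 2. Within replicates 1 and 2 the log2 differences of Ctnna2 were -0.013 and -1.49. In cHet Rep2, 52 of 86 Spon1 UMIs lay in the same 12 cells, Lum was detected in 14 of 124 members, and 1 cell held 59 of 173 Ctnna2 UMIs. Without the cell holding most UMIs of each gene in each library, Slc1a3, Spon1 and Lum did not reach the minimum of counts and were not tested. Ctnna2 turned to 0.061 with at least 2 arterial genes. Without the doublet-scored members 5 genes were called, namely Slc1a3, Gm42418, Tbx20, Adgrg6 and Nts, all lower. Gm42418, a noncoding locus where reads of ribosomal RNA collect, differed between the kits by more than between genotypes, at 2611 and 1305 CPM in replicate 1 and 15165 and 11465 CPM in replicate 2.

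Of the genes higher in cKO, Igfbp3, Timp3, Depp1 and Tshz2 were read from many cells. Igfbp3 (chr11:7206086-7213923, minus strand) stood at 155, 249, 398 and 539 CPM in library order and was detected in 30 of 47, 16 of 17, 104 of 124 and 142 of 164 members. It rose by 0.53 ± 0.11 on the log2 scale (SE, edgeR adjusted p = 0.0165), with within-replicate differences of 0.68 and 0.45. With at least 4 or at least 2 arterial genes it did not pass, at 0.28 and 0.48 (edgeR adjusted p = 1.00 and 0.0538), and leaving out 1 library gave 0.078 (without cKO Rep2), 0.12 (without cHet Rep1), 0.87 (without cKO Rep1) and 1.16 (without cHet Rep2), none passing. In cells with none of the 7 endothelial genes, 9.26% to 16.5% held an Igfbp3 UMI. Depp1, a regulator of autophagy and FOXO target, stood at 57.8, 59.2, 67.5 and 138 CPM and rose by 0.80 (edgeR adjusted p = 0.0272), with within-replicate differences of 0.04 and 1.04. It did not pass with at least 4 or at least 2 arterial genes, at 0.54 and 0.39, and without cKO Rep2 it was 0.099. Timp3, a metalloprotease inhibitor of the vessel wall, stood at 208, 272, 246 and 359 CPM, and Cav1 (caveolin 1) at 6.19, 24.5, 15.6 and 40.2 CPM. Both cKO values of Timp3 and of Cav1 were above both cHet values. Timp3 did not pass with at least 4 or at least 2 arterial genes (0.38 and 0.24), without doublet-scored barcodes or without cells rich in cardiac markers. Cav1 passed with at least 4 arterial genes but not with at least 2 (1.09) or without doublet-scored barcodes (1.77). Without cHet Rep2, Cav1 was 2.25 and did not pass.

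Of the genes higher in cKO, the cardiac muscle genes had large differences that rested mostly on 1 cell. Actc1, cardiac alpha actin, stood at 3.09, 4.09, 14.0 and 279 CPM in library order. Of its 756 UMIs in cKO Rep2, 689 came from 1 cell, which also held 210 of 215 Myl7, 201 of 209 Myl4 and 384 of 390 Ttn UMIs. That cell had 10 of 10 cardiac muscle markers, 3 arterial genes, 41795 UMIs and was among the doublet-scored barcodes. Leaving out members with 4 or more cardiac markers, also added after seeing the data, gave 27 calls, 24 of them among the 33. Acta2 had 295 of its 479 UMIs in the same cell, Slc8a1 231 of 299 and Dmd 77 of 223. Myl7, Myl4, Slc8a1 and Ttn, with Vcan, were the 5 called genes whose sign differed between replicates. Lhx2 (0, 11, 1 and 19 UMIs) was called higher on few UMIs, with 11 Lhx2 UMIs in a single cell of each cKO library.

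**Figure D4:**
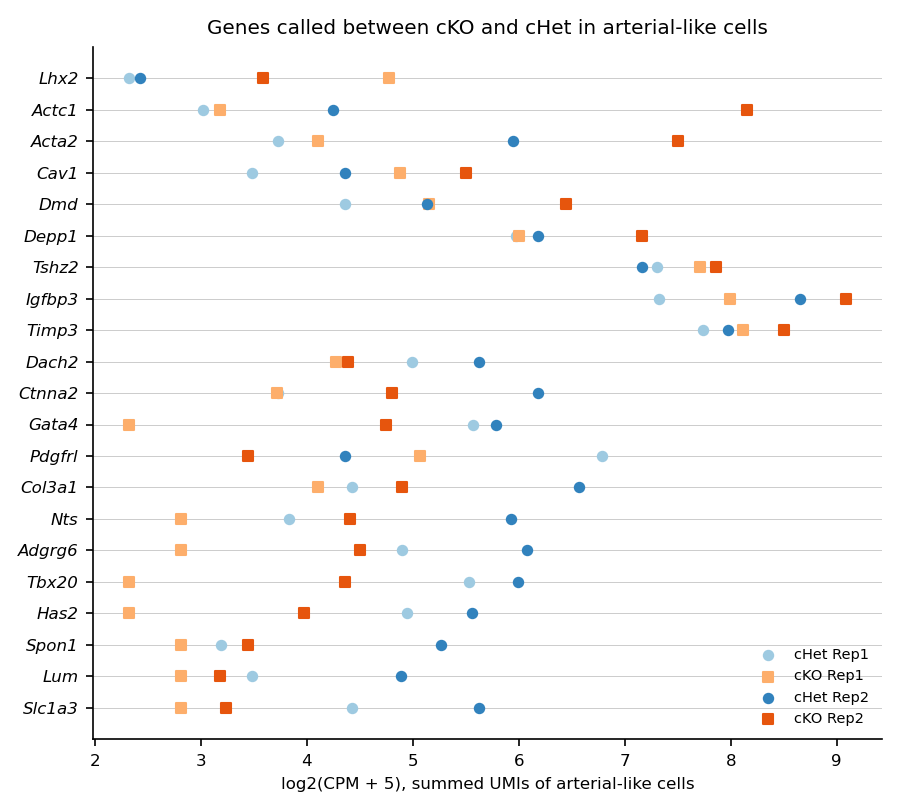
log2(CPM + 5) in arterial-like cells of the 4 libraries for genes that were called between cKO and cHet, had 1 sign in both replicates and changed most; circles are cHet, squares cKO. Tbx20, Gata4 and Has2 were at 0 CPM in cKO Rep1, and Actc1 at 279 CPM in cKO Rep2.

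**Figure D5:**
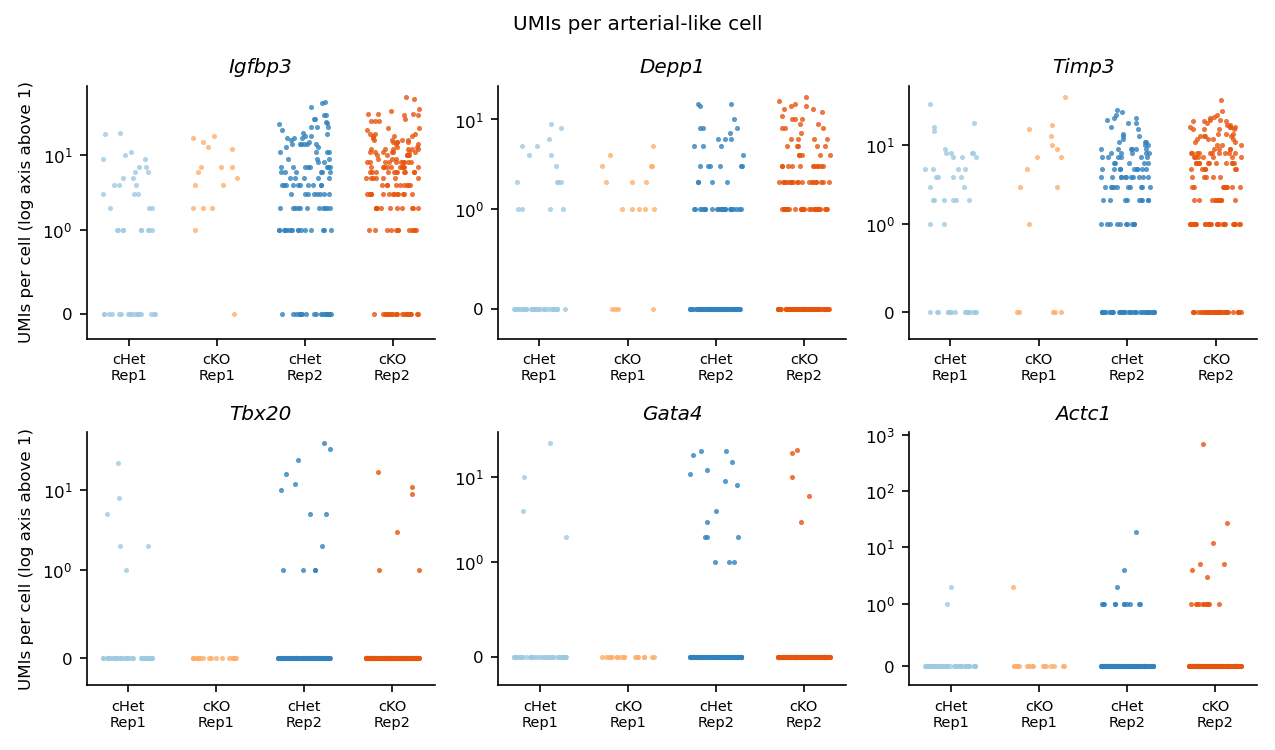
UMIs per arterial-like cell (logarithmic above 1, 1 point per cell) for 6 genes in the 4 libraries. Igfbp3 is spread over 142 of 164 cells of cKO Rep2, Tbx20 and Gata4 lie in 6 and 5, and 1 cell holds 689 Actc1 UMIs.

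Of 26 arterial identity genes outside the rule that were tested, 2 rose (Igfbp3 and Depp1, where 14 of all 10197 genes outside the rule rose), none fell, 14 were higher in both replicates and 1 lower in both; of all 10197 genes outside the rule, 2458 were higher in both and 2703 lower in both. The median log2 difference was 0.29, against 0.00 over all genes. Igfbp3 and Depp1 were also among the 15 genes highest in the members, and the list was chosen with earlier results of these data known. The venous and lymphatic list had a median of 0.31, with 6 of 11 genes higher and 2 lower in both replicates, and the Apelin and Cxcl12 list one of 0.66, with 4 of 5 higher and none lower in both. Higher medians were therefore found for lists other than the arterial one too. Vegfc had 0.46 ± 0.12 (SE, edgeR adjusted p = 0.139) and Sat1 0.42 ± 0.11 (edgeR adjusted p = 0.160). Efnb2, Nrp1 and Mecom had differences of 0.14, 0.11 and 0.04, each with an edgeR adjusted p of 1.00. The median of the arterial identity list turned to -0.06 without cKO Rep2. The rule genes Dll4, Hey1, Gja4, Unc5b, Gja5 and Sox17 had differences of 0.27, 0.06, -0.06, 0.31, 0.73 and 0.42.

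Of 14 endocardial genes tested, 2 fell (Tbx20 and Gata4), none rose and 6 were lower in both replicates, with a median of -0.17. Over all 10197 genes outside the rule, 18 fell and 2703 were lower in both replicates. The endocardial median turned to 0.13 without cHet Rep2. None of 24 Notch pathway genes, 15 VEGF pathway genes, 28 BMP and TGF-beta genes, 11 venous and lymphatic genes or 5 Apelin and Cxcl12 genes passed the test, and the first 3 lists had medians of 0.04, 0.11 and 0.02. Epha4 was the 1 gene of 22 ephrin, semaphorin and guidance genes that passed, and it fell by 1.28 (edgeR adjusted p = 0.0437). Epha4 was not called with at least 4 or at least 2 arterial genes, without doublet-scored barcodes or without the top cell of each gene. It was called with total-count scaling, with no filter on low counts and without cells rich in cardiac markers. Of 53 mitotic genes none passed, with 22 lower in both replicates, 2 higher in both and a median of -0.12, which turned to 0.10 with at least 4 arterial genes. None of 21 genes of the Kmt2d complex and other H3K4 enzymes passed. None of 80 cytosolic ribosomal protein genes passed either, with 47 higher in both replicates, 3 lower in both and a median of 0.08. Over all 10197 genes outside the rule, 2458 were higher in both.

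The remaining endothelial cells of the same libraries gave no call among 12025 genes (0%), with 639 at an unadjusted p under 0.05, while DESeq2 called 1. With no filter on low counts, however, they gave 138 calls and the members 67. The difference between members and remaining cells was tested directly as an interaction over the 8 sums. That fit leaves 1 residual degree of freedom, and its p-values do not measure spread between libraries. Of 12000 genes, 49 passed (0.408%), 14 with a more positive and 35 with a more negative cKO effect in the members, 1 of them (Sox17) a gene of the rule, and 19 were among the 32 called in the members outside the rule. Without the replicate block 5 passed, and none by DESeq2, which had 36 genes at an unadjusted p under 0.05. Tbx20 stood at 3.32 and 0 CPM in the remaining cells of cHet Rep1 and cKO Rep1 and at 16.3 and 42.2 CPM in cHet Rep2 and cKO Rep2, so that in replicate 2 it was lower in cKO among members and higher in cKO among remaining cells. Its cKO effect was 3.26 log2 units more negative in the members (interaction, edgeR adjusted p = 4.7e-14). Gata4 behaved likewise in replicate 2, at 11.8 and 30.1 CPM in the remaining cells of cHet and cKO. Only 12 and 3 members of cHet Rep2 and cKO Rep2 held both genes. Whether the result rests on a few such cells falling on either side of the limit of 3 arterial genes was not tested. Vegfc had a more positive cKO effect in the members, by 0.64 ± 0.17 (SE, interaction, edgeR adjusted p = 0.0292), as did Depp1, by 1.00.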

How the data were processed

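Single-cell RNA-seq libraries of sorted Tbx1-lineage cells were deposited as matrices of UMI counts per gene and barcode, made by the authors with Cell Ranger on mm10 (8.0.1 in the submitters' processing notes; 7.0.1 for replicate 1 and 8.0.1 for replicate 2 per the file headers). The 4 libraries held 9307 to 37093 barcodes and 179454146 to 234726019 UMIs. The 37093 barcodes of cHet Rep1 exceed the cells the study lists for it, while the other libraries match the study's numbers. Of those barcodes 6238 passed the limits on genes and mitochondrial UMIs, also more than the study's cells. Barcodes were filtered and chosen as the report states, doublets were not removed, and counts were summed per library and cell group. Members and gene lists were chosen with earlier results of these data known. The sums were tested with edgeR 4.0.16 (filterByExpr, TMM, quasi-likelihood F test, Benjamini-Hochberg adjustment), with DESeq2 1.42.0, other filters, thinned cells, other thresholds and omitted libraries as alternatives. The block was used since the replicate number marks kit and pool. Deviations from genotype means of same-numbered libraries correlated at 0.53, and 1552 of 10210 genes differed between replicates. P-values within a cell group rest on spread between pooled libraries, which edgeR shares over genes. With 1 residual degree of freedom, the spread of a single gene enters little. Ttn passed with log2 differences of -3.25 and 5.21 in replicates 1 and 2. The interaction has library as a block and leaves 1 residual degree of freedom, so its p-values do not measure spread between pooled libraries. Genes named were the 12 highest and 12 lowest called with 1 sign in both replicates (10 rose), called list members, the 15 highest and 15 lowest against remaining cells, and the first 10 interaction genes. The fit was checked on simulated library sums with 1 dispersion for all genes. It called 65 of 100 genes changed 2-fold, 94 of 100 changed 4-fold and 9 of 10010 unchanged genes. No cells were simulated, so the check cannot speak to calls that rest on few cells. Some named genes are not reported here. Intervals and the floor of 3 counts cover counting error only. Levels per gene are not length-scaled because UMIs are counted at the 3' end.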

Additional observations from a re-analysis of the deposited data

Results flagged for a closer look

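The interaction term in edgeR called 49 genes for a different cKO effect in arterial-like and remaining endothelial cells, while DESeq2 called none. Values here are the log2 effect in arterial-like cells minus that in remaining cells. It was -3.26 for Tbx20, -2.72 for Gata4, -3.43 for Has2, -2.93 for Adgrg6, -1.11 for Vcan, -1.46 for Col3a1 and -4.05 for Lum. It was also -4.02 for Slc1a3, -2.43 for Nts, -2.11 for Ednrb, -4.30 for Dcc, -2.97 for Pdlim3, -1.70 for Pdgfrl, -1.48 for Dach2 and -0.52 for Fabp5. Gm42418, the locus of ribosomal reads, had -0.62. Hbb-y, an embryonic globin, had -4.09, with 73 UMIs in members of cHet Rep1, 68 of them in 1 cell, and none in cKO Rep1. Positive values were 6.25 for Lhx2, 0.55 for Tshz2, 1.00 for Depp1 and 2.39 for Ttn, whose UMIs in cKO Rep2 lay mostly in 1 cell. Groups of 2 libraries were too small for a check of single outlying libraries. The difference was not seen alike in each replicate. In replicate 1, Pdlim3 fell from cHet to cKO in both cell groups. With TMM scaling it went from 14.6 to 2.21 CPM in members and from 5.47 to 0.913 CPM in remaining cells. Tbx20 also fell to 0 in both groups of replicate 1. Vcan had opposite signs in the members, with log2 differences of 0.18 in replicate 1 and -1.22 in replicate 2.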

How the results depend on the processing

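The 33 calls between genotypes in arterial-like cells became 0 without the replicate block, where pairing by replicate is dropped, 0 with DESeq2, 0 with cells thinned to 5000 UMIs, 5 without doublet-scored barcodes, 9 with at least 4 and 20 with at least 2 arterial genes, 67 with no filter on low counts, and 34 with total-count scaling. Leaving out 1 library gave 0 to 9. The 12 called members of gene lists became 0, 0, 0, 1, 3, 6 and 20 under the first 7 of these settings, 7 without cells rich in cardiac markers, and 0 to 5 without 1 library. In remaining cells the 0 calls became 1 with DESeq2 and 138 with no filter. The 49 interaction calls became 5 without the replicate block, 0 with DESeq2, 39 with no filter, all among the 49, and 41 without the top cell of each gene, 37 of them among the 49. Genes over 2-fold higher in arterial-like cells (25) and lower (7) numbered 8 and 4 with thinning, 38 were higher against cells with none of the 6 genes, and leaving out 1 library gave 26 to 57 higher and 9 to 12 lower. The share differences stayed inside their main 95% intervals, at -7.97 to -1.49 points in replicate 1 and -0.99 to 1.57 in replicate 2, so that replicate 2 changed sign with thinning and with at least 4 arterial genes; each replicate alone gave -6.77 and -0.57. Some named genes changed sign: Acta2 to -0.021 without doublet-scored barcodes and Ctnna2 to 0.061 with at least 2 arterial genes. Without 1 library, Acta2 ran from -1.26 (without cKO replicate 2) to 3.37, Actc1 from -0.95 (without cKO replicate 2) to 5.29, Col3a1 from -2.03 to 0.091, Nts from -3.80 to 0.074 and Ctnna2 from -2.05 to 0.88, the last 3 changing sign without cHet replicate 2. Of the other values of named genes under an alternative, 97 kept their call and 180 kept only their direction. Medians of the arterial identity, endocardial and mitotic lists moved by more than the spread between replicates in 24 of their values under an alternative and by less in 18, over -0.06 to 0.63, -0.54 to 0.13 and -0.19 to 0.10. The causes were not tested. cKO Rep1, with 17 members, limits every comparison of genotypes.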
